A study of Solanum tuberosum with 72 samples.

Results

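FDH encodes formate dehydrogenase, the mitochondrial enzyme that oxidises formate to carbon dioxide and passes the electrons to NAD. Formate in plants arises from several sources, among them photorespiratory glyoxylate and methanol released from cell walls, and the one-carbon units of folate metabolism stand in exchange with it. In potato the enzyme is known as an abundant protein of mitochondria from tubers and other non-green tissue, and its transcript is known to accumulate in leaves under several stresses.

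Spots were taken as FDH where the array's probe annotation, brought up to date through RefSeq names, gave FDH as the gene's symbol or synonym. This found 4 spots out of 32448, which are 2 cDNA clones of 1 gene (synonyms FDH and FDH1) printed at 2 spots each, out of 15360 printed clones, of which 11037 had a value and 905 carried an annotation. The clones are called clone A and clone B here. They are probes of 1 gene on the same arrays, so they repeat the measurement and are not replicates of a condition. Spotted cDNA can also bind transcripts of close relatives, which these data cannot separate.

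The series holds 72 two-colour arrays of potato seedlings of the variety Gilroy, raised from true seed on hydroponic rafts for 5 weeks at 25 °C, with 16 h of light a day and 8 h without. The groups used here are leaves (the aerial tissue) and roots under cold (4 °C, boxes on ice), heat (35 °C, water bath), salt, or no stress with the medium changed in the same way, each for 3, 9 or 27 h. The salt dose is given as 150 mM NaCl in 1 label and 100 mM in another, and this was not settled. Each of the 24 groups has 3 arrays. The labels state that the experiment was run 3 times independently, and a sample pooled 6 plants from 2 boxes.

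Every value is a log2 ratio of a query (stressed plants, or a further control sample on the no-stress arrays) to a reference, which pooled control plants from 6 boxes for the matching tissue and time. Query RNA carried Cy3 and reference RNA carried Cy5 on every array. The table does not state the direction of the ratio. Query over reference is the likely reading, from how the labels name the channels, although the titles put the control first. Had it been the reverse, every higher and lower in the text would trade places. A log2 ratio against a reference of the same tissue holds no level with which the label leaf or root could be checked, nor does it say how much FDH transcript leaves have relative to roots. In such whole-organ samples, a change in the make-up of cells and a change in transcript per cell cannot be told apart.

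All 4 FDH spots had a value on all 72 arrays, while arrays had values for 15580 to 20545 spots. Across the arrays the 2 spots of clone A correlated at r = 0.98 and those of clone B at r = 0.98, against a median of 0.892 over the 3804 clones with complete values at both spots. Spots of different FDH clones correlated at 0.964 to 0.970. The plot of clone B against clone A shows how closely the clones ran together in both tissues.

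**Figure D1:**
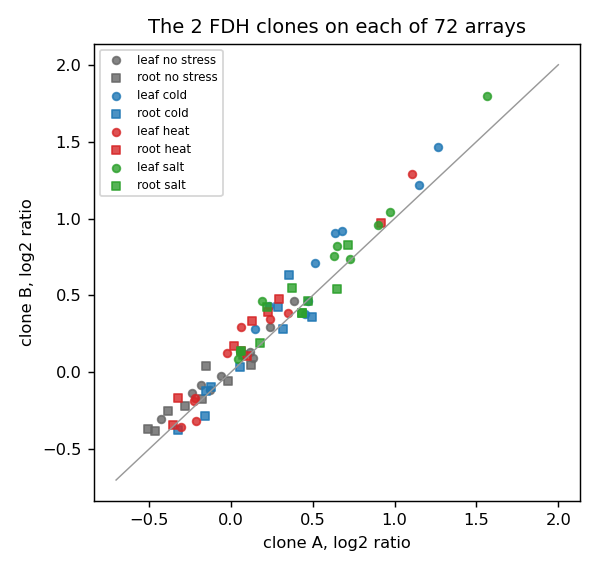
Log2 ratio to the reference of FDH clone A (x axis) against clone B (y axis), 1 point for each of 72 arrays, circles for leaves and squares for roots, coloured by treatment. The grey line marks equal values, and points follow it from the lowest no-stress root arrays to the highest leaf salt array at 27 h.

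FDH was called higher under stress than without it at some of the times in leaves under cold and salt and in roots under salt. Of the 36 clone-by-comparison pairs (2 clones, 18 comparisons of a stress with no stress in the same tissue at the same time), 11 were called higher and 0 lower. A call is an adjusted p under 0.05 in the limma fit across all clones of the tissue, after Benjamini-Hochberg adjustment within the comparison. The calls comprise both clones in leaves at 27 h of cold, at 9 and 27 h of salt, and in roots at 3 and 9 h of salt, plus clone A alone in leaves at 9 h of cold. Each of these calls was lost under another normalization or when some single array was left out, as given below. The difference was positive in 34 of the 36 pairs, which are all readings of 1 gene. The median difference of all tested clones lay between -0.0125 and 0.0152, and the share of clones with as many positive differences was not counted. Set against 0 without the no-stress arrays, 7 of the pairs turned from positive to negative. The share of all tested clones called higher ranged from 0.148% (leaf heat 9 h) to 20.4% (root cold 27 h), so each count is given below beside that of its own comparison. The 3 stresses at a time point share the same no-stress arrays, so their differences are not independent of each other.

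**Figure D2:**
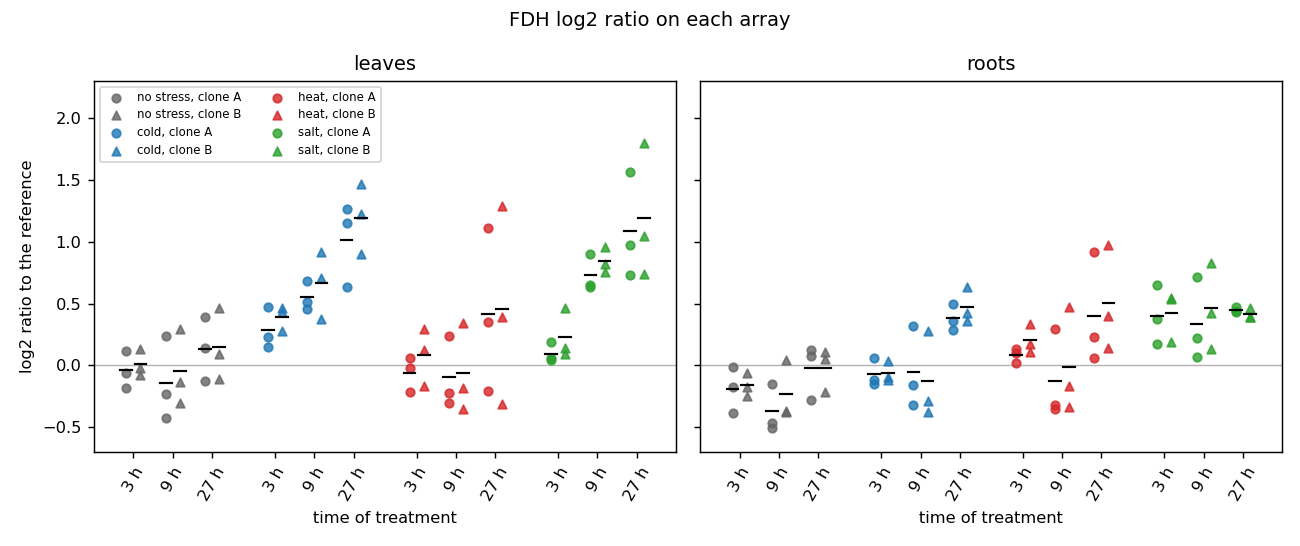
FDH log2 ratio to the reference (y axis) on every array, by treatment and hours (x axis), in leaves (left) and roots (right). Circles are clone A, triangles clone B, and black bars the means of 3 arrays. Cold and salt leaf arrays at 27 h lie between 0.64 and 1.80, above all no-stress leaf arrays.

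Without stress FDH was not called different from the reference in either tissue, although root values at 3 and 9 h were mostly below it. In leaves clone A read 0.12, -0.06 and -0.18 at 3 h, then 0.24, -0.23 and -0.43 at 9 h, then 0.14, -0.13 and 0.39 at 27 h, on replicates 1, 2 and 3. Clone B read 0.13, -0.02 and -0.08, then 0.29, -0.14 and -0.30, then 0.09, -0.11 and 0.46. Leaf arrays thus fell on both sides of 0 at every time. In roots the no-stress values of clone A were -0.39, -0.17 and -0.01 at 3 h, then -0.15, -0.46 and -0.50 at 9 h, and lastly 0.12, -0.28 and 0.08 at 27 h. Those of clone B were -0.25, -0.18 and -0.06, then 0.04, -0.38 and -0.37, then 0.05, -0.22 and 0.11. The root arrays at 3 h and 9 h lay below 0 with the exception of clone B on replicate 1 at 9 h. None of the 12 pairs of clone and no-stress group was called different from 0 by limma (lowest adjusted p = 0.13). Clone A in roots at 9 h (-0.37, 95% interval -0.66 to -0.08) was the 1 pair with an unadjusted p under 0.05. Of all tested clones 0.0613%, 0.747% and 0.00985% were so called in leaves at 3, 9 and 27 h, and 5.06%, 3.28% and 1.44% in roots.

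In leaves under cold, FDH read higher than without stress at 27 h by 0.88 (SE 0.24) on the log2 scale for clone A and 1.05 (SE 0.28) for clone B, which are ratios of 1.84 and 2.07. The 27 h cold arrays read 1.26, 0.64 and 1.15 for clone A and 1.46, 0.90 and 1.22 for clone B. All 3 lay above all 3 no-stress arrays for both clones, with replicate 2 the lowest. Both clones were called higher by limma (adjusted p = 0.00838 and 0.00729), as were 11.4% of all tested clones. A difference larger than that of both FDH clones was found for 3.08% of the tested clones. Quantile normalization, which gives all arrays the same distribution of values, lowered the differences to 0.55 and 0.67 and ended both calls (adjusted p = 0.171 and 0.123). Leaving out no-stress replicate 2 ended that of clone A (adjusted p = 0.0506), and clone B was called without any 1 of the 6 arrays.

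At 9 h of cold the leaf arrays read 0.68, 0.45 and 0.52 for clone A and 0.92, 0.38 and 0.71 for clone B. Again no cold array overlapped the no-stress arrays. The differences were 0.69 (SE 0.24) and 0.72 (SE 0.28), or 1.61-fold and 1.64-fold. The clone with the smaller spread, clone A, was called (adjusted p = 0.0361 by limma) and clone B was not (adjusted p = 0.0621), beside 12% of clones called higher. The call of clone A was lost without any 1 of 5 of the 6 arrays (adjusted p = 0.0551 to 0.162), all but no-stress replicate 1, without which clone B passed (0.042). Clone B also passed with the replicate number as a block (adjusted p = 0.0264). The call of clone A was also lost under quantile normalization (0.66, adjusted p = 0.0995) and with the second spot alone (0.70).

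Cold leaves at 3 h read 0.15, 0.47 and 0.23 for clone A and 0.28, 0.47 and 0.43 for clone B. They too lay above the no-stress arrays, but the differences of 0.33 and 0.38 did not pass (adjusted p = 0.392 and 0.386 by limma), in a comparison where 9.84% of clones were called higher. Over the 3 times, cold arrays thus lay above the no-stress arrays in all 6 pairs of clone and time. Such separation was met in 19.3%, 19.4% and 20.4% of all tested clones at 3, 9 and 27 h.

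Salt gave leaf values of the same order at 9 and 27 h. The 27 h salt arrays read 0.97, 0.73 and 1.57 for clone A and 1.04, 0.74 and 1.80 for clone B. Replicate 3 held the highest FDH value of the whole series, and all 3 arrays lay above the no-stress arrays, as 17.6% of tested clones did. The differences were 0.96 (SE 0.24) and 1.04 (SE 0.28), which are ratios of 1.94 and 2.06 with 95% intervals of 0.47 to 1.44 and 0.48 to 1.61 on the log2 scale. Both passed in limma (adjusted p = 0.00752 and 0.012), beside 5.77% of clones called higher and 2.14% with a larger difference than both. Without salt replicate 3 neither clone passed (0.72 and 0.74, adjusted p = 0.0806 and 0.12), nor without no-stress replicate 2 (adjusted p = 0.0503 and 0.0633). Quantile normalization also ended both calls (0.75 and 0.82, adjusted p = 0.0634 and 0.0681).

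At 9 h of salt the leaf arrays read 0.90, 0.65 and 0.63 for clone A and 0.96, 0.82 and 0.76 for clone B. All 3 exceeded the no-stress arrays for both clones, with replicate 1 the highest, and 16.2% of tested clones showed such a separation. The differences of 0.87 (SE 0.24) and 0.90 (SE 0.28) both passed in limma (adjusted p = 0.0232 and 0.0449), where 3.72% of clones were called higher and 2.18% had a larger difference than both. The call of clone A was lost without no-stress replicate 2 or 3 or salt replicate 1 or 2 (adjusted p = 0.0619 to 0.128). That of clone B was lost without any array but no-stress replicate 1 (adjusted p = 0.0746 to 0.176), with quantile normalization (0.85, adjusted p = 0.0792) and with either spot alone (0.91 and 0.88).

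At 3 h of salt, leaves read 0.04, 0.06 and 0.19 for clone A and 0.09, 0.14 and 0.46 for clone B. These values overlapped those of the no-stress arrays, while 9.72% of tested clones lay above them. The differences of 0.14 and 0.22 did not pass (adjusted p = 0.956 and 0.93 by limma), and 0.756% of clones were called higher. The salt difference was larger at 27 h than at 3 h by 0.82 for both clones and at 9 h than at 3 h by 0.73 and 0.67. These changes over time did not pass (adjusted p = 0.513 and 0.603, and 0.566 and 0.659), although 3 of the 4 had an unadjusted p under 0.05. Of all tested clones 0.128% and 0.011% were called for these changes, so few clones of any kind passed there.

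Heat gave no call in leaves. The leaf heat arrays read 0.06, -0.22 and -0.02 for clone A and 0.30, -0.17 and 0.12 for clone B at 3 h, and 0.24, -0.30 and -0.23 and 0.34, -0.36 and -0.18 at 9 h. At 27 h they read 1.11, -0.21 and 0.35 for clone A and 1.29, -0.32 and 0.39 for clone B. Replicate 1 at 27 h thus stood at the height of the cold and salt arrays, while replicate 2 lay below every no-stress array of that time. All 6 pairs of clone and time overlapped the no-stress arrays, from which 11%, 9.63% and 10.3% of tested clones were separated upwards at 3, 9 and 27 h. The differences ran from -0.02 to 0.31 (adjusted p = 0.7 to 0.996 by limma), with 0 of 6 pairs at an unadjusted p under 0.05. At 3, 9 and 27 h the shares of clones called higher came to 0.382%, 0.148% and 0.433%. At 27 h the 95% interval of clone A ran from -0.21 to 0.77 and that of clone B from -0.26 to 0.88. Without replicate 1 of heat the differences at 27 h turned to -0.06 and -0.11.

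**Figure D3:**
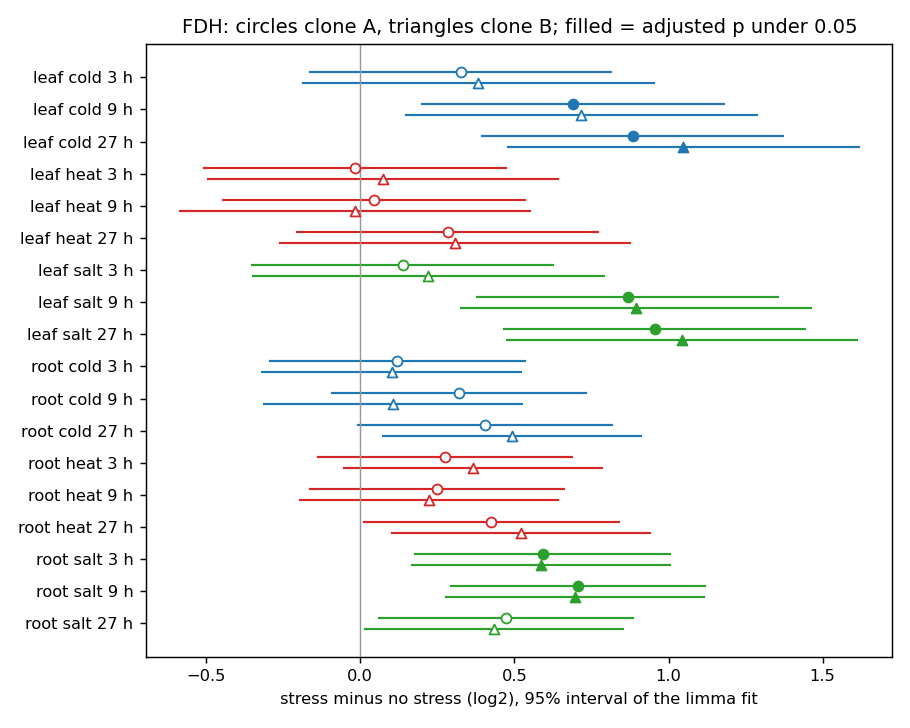
Stress minus no stress for FDH (x axis, log2) in 18 comparisons (y axis), circles for clone A and triangles for clone B, with lines for the 95% interval of the limma fit. Filled symbols mark an adjusted p under 0.05, which 11 of the 36 symbols have, in leaf cold, leaf salt and root salt.

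Comparing the stresses with each other in leaves, where the no-stress arrays cancel, FDH was higher under cold and under salt than under heat. Averaged over the 3 times, cold exceeded heat by 0.53 (SE 0.14) for clone A and 0.59 (SE 0.16) for clone B (adjusted p = 0.00226 and 0.00306 by limma). Heat lay below salt by a log2 difference of -0.55 and -0.60 (adjusted p = 0.00322 and 0.00557). Both clones kept these calls when any 1 of the 18 arrays was left out. Such calls were common: 23.4% of all clones were called higher under cold than heat and 14.1% lower under heat than salt. Quantile normalization ended the call of clone B for cold against heat (0.40, adjusted p = 0.0535). Cold and salt could not be separated in leaves, with differences of -0.02 (95% interval -0.30 to 0.26) and -0.00 (-0.33 to 0.32) and adjusted p = 0.94 and 0.989, while 23.2% of clones differed between them in either direction.

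In roots FDH was called higher under salt at 3 and 9 h. The root arrays at 3 h of salt read 0.65, 0.37 and 0.18 for clone A and 0.54, 0.55 and 0.19 for clone B. All lay above the no-stress arrays, which were at or below -0.01. The differences were 0.59 (SE 0.20) for both clones, or 1.51-fold and 1.5-fold. Both passed in limma (adjusted p = 0.0355 and 0.0396), beside 12.1% of clones called higher and 7.9% with a larger difference than both.

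At 9 h of salt the root arrays read 0.72, 0.22 and 0.06 for clone A and 0.83, 0.42 and 0.14 for clone B. Replicate 1 was highest and replicate 3 lowest for both clones, and no array overlapped the no-stress arrays. The differences of 0.71 (SE 0.20) and 0.70 (SE 0.20) passed in limma (adjusted p = 0.0396 and 0.0477), where 3.08% of clones were called higher and 2.88% had a larger difference than both. The mean salt values at 9 h (0.33 and 0.46) were close to those at 3 h (0.40 and 0.43), and the no-stress means were -0.37 and -0.23 at 9 h and -0.19 and -0.16 at 3 h.

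At 27 h of salt the root arrays were tight, at 0.43, 0.44 and 0.47 for clone A and 0.39, 0.39 and 0.46 for clone B. They too lay above all no-stress arrays. The differences of 0.47 and 0.43 had unadjusted p = 0.0264 and 0.0428 but did not pass after adjustment (0.265 and 0.337 by limma), in a comparison where 1.69% of clones were called higher. All 6 root salt pairs of clone and time were thus separated from no stress, as were 19.1%, 15.7% and 13.9% of all tested clones at 3, 9 and 27 h.

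The 4 root salt calls rested on few arrays. At 3 h both calls were lost without replicate 1 or 2 of either group (adjusted p = 0.0683 to 0.147), and that of clone B also without no-stress replicate 3 (0.0525). At 9 h both were lost without replicate 1 or 2 of salt or replicate 2 or 3 of no stress (adjusted p = 0.0678 to 0.227). At 9 h the values fell to 0.52 and 0.51 without salt replicate 1 (adjusted p = 0.211 and 0.227). A fit with only the arrays of the comparison kept clone B at 3 h and ended the other 3 calls (adjusted p = 0.0631 for clone A at 3 h, 0.0763 and 0.0884 at 9 h). Quantile normalization ended both calls at 3 h (0.59 and 0.55, adjusted p = 0.0519 and 0.0633).

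Cold and heat gave no call in roots in the fit without a replicate block. The 27 h cold root arrays read 0.49, 0.29 and 0.36 for clone A and 0.36, 0.42 and 0.63 for clone B. These lay above the no-stress arrays, as 26% of tested clones did, and the differences of 0.40 (SE 0.20) and 0.49 (SE 0.20) did not pass (adjusted p = 0.113 and 0.0574 by limma), beside 20.4% of clones called higher. Same-numbered arrays of these groups deviated together over all clones (r = 0.211, 0.151 and 0.198), and with the replicate number as a block clone B passed (adjusted p = 0.0274), as it did with array weights (0.0381) and with only the groups compared (0.0317). At 3 and 9 h of cold, root values ranged from -0.38 to 0.32 and overlapped no stress for both clones, with differences of 0.10 to 0.32, beside 6.18% and 14.1% of clones called higher and 16.1% and 21.9% separated. Among the 6 root cold pairs, 1 had an unadjusted p under 0.05.

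Root heat arrays at 27 h read 0.91, 0.06 and 0.23 for clone A and 0.97, 0.14 and 0.40 for clone B. Replicate 1 was the highest array, as in leaves at the same time, and clone A overlapped no stress while clone B, like 17.9% of tested clones, did not. The differences of 0.43 (SE 0.20) and 0.52 (SE 0.20) did not pass (adjusted p = 0.133 and 0.0702 by limma), beside 10.1% of clones called higher. They became 0.17 and 0.29 without heat replicate 1, and clone B passed without heat replicate 2 (0.70, adjusted p = 0.0245) and with the replicate block (adjusted p = 0.035). Root heat at 3 h gave 0.13, 0.02 and 0.10 for clone A and 0.34, 0.17 and 0.10 for clone B, above all no-stress arrays, and at 9 h values from -0.35 to 0.47 that overlapped. Of all tested clones 3.86% and 3.71% were called higher at 3 and 9 h and 15.2% and 16.5% were separated. Of the 6 root heat pairs, 2 had an unadjusted p under 0.05.

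Between stresses in roots, FDH was lower under cold than under salt by a log2 difference of -0.31 (SE 0.12) for clone A and -0.34 (SE 0.12) for clone B (adjusted p = 0.0305 and 0.0196 by limma), as were 23.6% of clones. The call of clone A was lost without cold replicate 3 at 3 h, 2 or 3 at 9 h or 2 at 27 h, and without salt replicate 1 at 3 or 9 h (adjusted p = 0.052 to 0.0847) and that of clone B without salt replicate 1 at 9 h (0.0553). Heat against salt gave -0.27 and -0.20 (adjusted p = 0.0585 and 0.171) and cold against heat -0.03 and -0.14 (0.823 and 0.341), which did not pass. Heat against salt passed for both clones without heat replicate 1 at 9 h or at 27 h (-0.28 to -0.36, adjusted p = 0.00873 to 0.0464), and for clone A without salt replicate 3 at 3 or 9 h (0.0389 and 0.0331). Clone A also passed with the replicate block (0.0222), and both clones with array weights (0.0158 and 0.0409). Of all clones 41.9% and 54.9% were called in either direction for these.

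Shoot transcripts were mostly called lower on the root arrays at 27 h of cold and of heat, while few passed under salt. A list of transcripts of shoots (a chlorophyll-binding protein and photosystem II subunits, 15 clones of 4 genes) had array medians of -0.35, -0.64 and -0.50 at 3 h of salt and -0.57, -0.41 and -0.04 at 9 h. On the no-stress root arrays of those times the medians were -0.01, 0.03 and 0.00, and 0.08, 0.06 and -0.18. Of the 13 clones tested at 3 h of salt 2 were called higher and 0 lower by limma, beside 12.1% and 9.41% of all clones. Of 14 at 9 h none passed (0 at an unadjusted p under 0.05), beside 4.37% of all clones called in either direction. In roots at 27 h of heat the medians were -3.01, -0.67 and -0.99, with 8 of 14 clones called lower (9.91% of all clones), and replicate 1 was both the lowest array in these and the highest in FDH. At 27 h of cold they were -2.42, -2.13 and -1.43, with 11 of 14 lower and 2 higher (18.6% and 20.4% of all clones). At 3 and 9 h of cold in roots 3 of 12 and 6 of 13 were lower and 0 higher, beside 6.99% and 12.3% of all clones called lower. The same list was also called lower in leaves at 27 h of cold, with 4 of 6 lower and 1 higher (10.1% and 11.4% of all clones) and a median difference of -0.70. It is thus not read here as a measure of shoot material in roots. The part of these transcripts in the FDH values was not tested.

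The 18 differences, averaged over both clones, ran from 1.0 (leaf salt 27 h) and 0.97 (leaf cold 27 h) through 0.88 (leaf salt 9 h), 0.70 (leaf cold 9 h), 0.70 (root salt 9 h) and 0.59 (root salt 3 h) down to 0.03 and 0.01 (leaf heat 3 h and 9 h). Between them lay root heat 27 h (0.47), root salt 27 h (0.45), root cold 27 h (0.45), leaf cold 3 h (0.35), root heat 3 h (0.32), leaf heat 27 h (0.30), root heat 9 h (0.24), root cold 9 h (0.21), leaf salt 3 h (0.18) and root cold 3 h (0.11). No neighbours in this order differ beyond their error: the largest step, between leaf salt 9 h and leaf cold 9 h, was 0.18, against a smallest SE of 0.20. The 2 clones gave nearly the same order. Their differences lay 0.06 apart at the median and at most 0.21 (root cold 9 h).

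The tissues were not shown to differ in the fit without a replicate block. The stress differences of leaves minus those of roots, averaged over times, were 0.35 and 0.48 for cold, -0.21 and -0.25 for heat, and 0.06 and 0.15 for salt. None of the 6 passed in a limma fit over all arrays (adjusted p = 0.18 and 0.0862 for cold, 0.658 and 0.637 for heat, 0.915 and 0.785 for salt), and 1 had an unadjusted p under 0.05. This fit treats leaf and root arrays as independent. The FDH deviations of leaf and root arrays of the same treatment, time and number correlated at r = 0.65, and a fit that pairs them was not run. The interval of clone B for cold ran from 0.07 to 0.89 before adjustment, and it passed without root cold replicate 1 at 9 h (adjusted p = 0.0487), under a replicate block (0.044), and with array weights added instead (0.0399). Of all clones 20.0%, 1.63% and 4.13% were called for cold, heat and salt. The leaf calls under cold, which roots did not have, thus do not by themselves show a difference between the tissues.

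Changes over time within a stress, each set against no stress, gave 0 calls in 24 pairs by limma (lowest adjusted p = 0.364), with 3 at an unadjusted p under 0.05. Few clones of any kind passed in leaves or under heat. For 9 h and 27 h against 3 h, the shares of clones called were 2.75% and 1.37% in leaf cold, 0% and 0% in leaf heat, 13.7% and 21.4% in root cold, 0% and 0.172% in root heat, and 1.25% and 2.89% in root salt. In leaves under cold the difference was larger at 27 h than at 3 h by 0.56 and 0.66 (adjusted p = 0.467 and 0.456). In roots under salt it was smaller at 27 h than at 3 h by a log2 difference of -0.12 and -0.15 (0.868 and 0.835).

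FDH was next set beside genes that act near it. The list of one-carbon and photorespiratory genes held 3 other clones, GCVT, LPD2 and SHMT. GCVT encodes the T protein of glycine decarboxylase, which hands a one-carbon unit of glycine to folate. LPD2 is named as a lipoamide dehydrogenase, an activity that the same complex uses, and SHMT as serine hydroxymethyltransferase, which takes up that unit to make serine.

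Where FDH was called higher in leaves, these genes were called lower or did not pass. At 27 h of salt GCVT fell by 1.25 (SE 0.22) and LPD2 fell by 1.04 (SE 0.23) on the log2 scale (adjusted p = 0.000315 and 0.00285 by limma). At 27 h of cold GCVT fell by 0.94 and LPD2 fell by 0.87 (adjusted p = 0.00289 and 0.00748). These were all the clones of the list that were tested in leaves, and the list medians were -1.15 and -0.91 beside medians of 0.01 and 0 over all clones. Of all tested clones 6.09% and 10.1% were called lower there, and 3.76% and 10.5% at 9 h of salt and cold. At 9 h, 1 of the 2 passed in each stress, GCVT under salt (-0.89, adjusted p = 0.0118) and LPD2 under cold (-0.78, adjusted p = 0.0152). In roots at 3 and 9 h of salt 0 of 3 passed in either direction, beside 21.5% and 4.37% of all clones. The list medians were -0.55 and -0.33, and 2 and 0 of the 3 were lower at an unadjusted p under 0.05 by limma. The same list was also called lower where FDH was not called. In roots this held for 3 of 3 clones at 27 h of heat (9.91% of all clones) and 2 of 3 at 27 h of cold (18.6%). It held for 1 clone each in leaves at 3 h of cold (6.93%) and in roots at 3 h of cold (6.99%), 9 h of cold (12.3%) and 3 h of heat (3.4%).

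**Figure D4:**
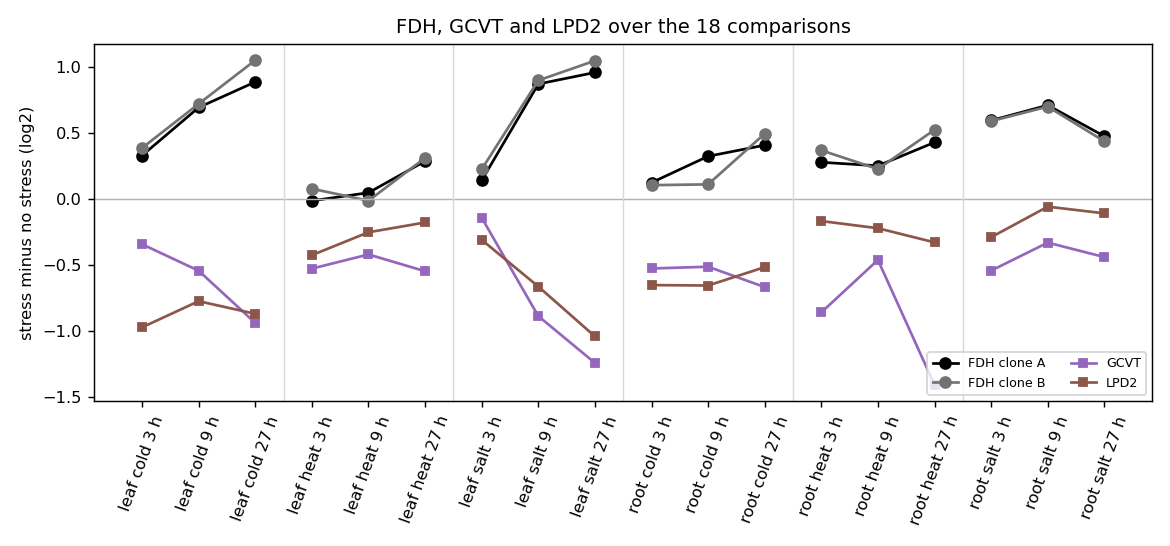
Stress minus no stress (y axis, log2) in 18 comparisons (x axis) for FDH clones A and B (circles) and for GCVT and LPD2 (squares), with lines joining the times of 1 stress. GCVT and LPD2 lie below 0 in every comparison, where FDH lies between -0.02 and 1.05, and these 2 genes were chosen for the plot after their values were seen.

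Other mitochondrial enzymes and carriers, 11 clones of 8 genes, were called in some of the comparisons in which FDH was and in some in which it was not. In leaves at 27 h of cold 4 of 11 were called higher and 0 lower, where 11.4% and 10.1% of all clones were, with a median of 0.24 against 0 for all clones. They were 2 clones of aconitase, an enzyme of the citrate cycle and of the cytosol (0.70 and 0.90), and 2 of UCP, an uncoupling carrier of the inner membrane (0.69 and 0.80). At 9 h of cold 2 of 10 were called higher (12% of all clones), FeS1, the Rieske iron-sulphur protein (0.34), and UCP (0.47). The median of the list was -0.0083 there, and the aconitase clones lay at -0.36 and -0.17 and did not pass. Under salt in leaves none of 11 passed in limma at 9 h or at 27 h, where both FDH clones did. Of all clones 7.48% and 11.9% were called there in either direction, so 0 of 11 is not far from those shares. At each time 3 of the 11 were higher at an unadjusted p under 0.05. In roots at 3 h of salt, where 12.1% of all clones were called higher and 9.41% lower, 4 of 11 were called higher, aconitase (0.71 and 0.38) and FeS1 (0.47 and 0.37), and 1 lower, UCP, which fell by 0.53. At 9 h 0 of 10 passed in limma, beside 4.37% of all clones called in either direction, and 0 had an unadjusted p under 0.05. Where FDH was not called, 3 of 11 were higher in roots at 27 h of cold and 1 of 11 at 3 h (20.4% and 6.18% of all clones). At 27 h of heat in roots 2 of 11 were higher (10.1%), and at 9 h of heat 1 of 10 was higher and 1 lower (3.71% and 2.11%). In leaves at 3 h of cold 2 of 11 were higher (9.84%).

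The list of methionine and S-adenosylmethionine metabolism, which draws its methyl groups from folate, held 28 clones of 7 genes. Several clones thus probe the same gene, and the counts below are of clones, not of genes. In leaves under cold 13 of 26 tested clones were called higher at 9 h and 8 of 26 at 27 h, and none lower, with medians of 0.57 and 0.43, beside 12% and 11.4% of all clones called higher. Those of AdoMetDC, S-adenosylmethionine decarboxylase of polyamine synthesis, reached 1.5 (SE 0.28) at 9 h, and those of METK2, a synthetase of S-adenosylmethionine, reached 1.21 (SE 0.20) at 9 h and 1.02 (SE 0.20) at 27 h. Under salt in leaves 1 of 26 was called higher at 9 h (AdoMetDC, 0.73) and 3 of 25 at 27 h, beside 3.72% and 5.77% of all clones, all of METK1, another synthetase (up to 0.75). In roots at 3 h of salt 9 of 20 were called higher and 0 lower, beside 12.1% of all clones called higher, led by METK2 (1.45, SE 0.28) and MS, methionine synthase (1.18, SE 0.24), and at 9 h 1 of 21, ARD, acireductone dioxygenase of methionine salvage (0.82), beside 3.08% of all clones. The calls in leaves at 9 h of cold were all clones of AdoMetDC, METK2 and MS. In leaves at 9 h of salt the MS clones lay from -0.59 to -0.35, and none passed. The list had its highest count where FDH was not called, in roots at 27 h of cold. There 17 of 21 were higher (median 0.88, beside 20.4% of all clones), and 9 of 21 were higher at 9 h (14.1% of all clones). In roots at 27 h of heat 2 of 21 were higher and 5 lower (median -0.40, beside 10.1% and 9.91% of all clones).

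The pattern of FDH over the 18 differences was compared with that of 161 other named genes, using clone B. The other FDH clone correlated with it at r = 0.968, above each of 7762 other clones with all 18 differences, of which the highest reached 0.914 and the median was -0.02. Most like FDH were ChtA1, a chitinase (r = 0.87), PCAS-1, a cyanoalanine synthase (0.86, its other clone 0.41), GP-alpha-1, a G-protein alpha subunit (0.83), HPL, hydroperoxide lyase (0.79), SBE, starch branching enzyme (0.76), and EI2 (0.75). Least like it were MIP2 (-0.82), pyrB (-0.74, its other clone -0.28), GAL83, a subunit of the SnRK1 kinase (-0.72), and cTPT, the triose phosphate translocator of chloroplasts (-0.63, its other clone -0.32). The other clones of ChtA1, GP-alpha-1 and HPL stood at 0.83, 0.71 and 0.76. These correlations describe 18 differences that share no-stress arrays and have no test.

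The spread of FDH within groups followed the replicate number in much the same way in leaves and roots. Averaged over the clones, replicate 1 was the highest array in 15 of the 24 groups, replicate 3 in 7 and replicate 2 in 2. The mean deviation from the group mean was 0.17 for replicate 1, -0.15 for replicate 2 and -0.03 for replicate 3 on the log2 scale. In heat at 27 h replicate 1 lay 0.76 above its group mean in leaves and 0.49 above it in roots, and replicate 2 deviated by -0.70 and -0.35. Over the 36 pairs of leaf and root arrays of the same treatment, time and number, the deviations correlated at r = 0.65 (Spearman's rho = 0.57), and at r = 0.51 without the 2 pairs farthest from the median. The median r over 6140 clones was 0.11, and 0.945% of them reached the value of FDH. The 3 deviations of a group add up to 0, so the pairs are not independent, and the correlation is a description with no test.

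**Figure D5:**
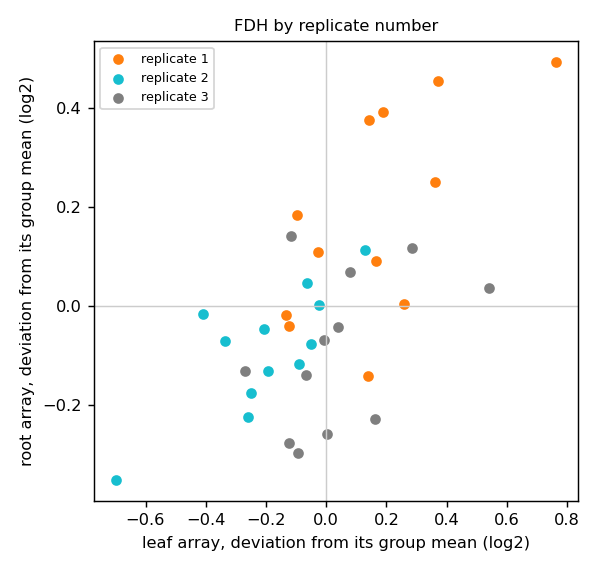
Deviation of FDH from its group mean (log2, mean of both clones) on each leaf array (x axis) against the root array of the same treatment, time and replicate number (y axis), 36 points coloured by number. Replicate 1 lies mostly to the upper right, and the highest point is heat at 27 h.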

How the data were processed

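The authors deposited 1 log2 ratio per spot and array. Per the labels the channels are Cy3 (query) and Cy5 (reference) with no dye swap, and the sources used here do not give the background correction or normalization. Values between -1 and 1 equal log2 of ratios with 2 decimals, and array medians lay between 0 and 0.014. Spots were paired by an inferred layout of 48 blocks of 26 by 26, and both spots of a clone were averaged. Clones with at least 2 of 3 arrays per group were fitted with limma 3.58.1 in R 4.3.3, over the 36 arrays of a tissue (72 for leaves minus roots), and tested on simulated data. The clones' and lists' choice was made with earlier results of these data known. List clones are named with values where called beside a called FDH clone, at most 4 genes per list and comparison. Likeness names the 6 highest and 4 lowest of 161 genes. The labels name 3 independent runs but do not say which array belongs to which run. The p-values measure the spread between arrays within groups, pooled over the groups of a fit. The lowest correlation between arrays was -0.33 (leaf cold 27 h replicate 3 with leaf heat 9 h replicate 2, 1 of 2556 pairs under -0.3). The values of both arrays were kept as deposited. Arrays correlated positively within their own groups (lowest r = 0.65 in leaf cold 27 h and 0.19 in leaf heat 9 h), and the cause of the negative value was not tested. RefSeq names come from assembly SolTub_3.0. Alternatives covered normalization, array weights, single spots, filters, the prior, a replicate block and left-out arrays. The number of arrays limits the precision.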

Additional observations from a re-analysis of the deposited data

How the results depend on the processing

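Of 36 stress pairs, 11 were called higher. Array medians subtracted, clones complete on all arrays, and a trended robust prior changed no call or sign among 66 results. Quantile normalization left 3 of the 11 calls. Leaf cold gave 0.66 (clone A) at 9 h and 0.55 and 0.67 at 27 h. Leaf salt gave 0.85 (clone B) at 9 h and 0.75 and 0.82 at 27 h, and root salt at 3 h gave 0.59 and 0.55. Leaf cold minus heat of clone B became 0.40. These no longer passed, whereas root heat minus salt of clone A passed at -0.32. Leaf minus root salt turned to -0.066 and -0.0001. Array SDs ran from 0.175 to 0.788, which quantile normalization makes equal, and the cause of the losses was not tested. Calls were also lost with the first spot (leaf salt 9 h 0.91, clone B; root salt 3 h 0.56, clone A; root salt 9 h 0.71, clone B), the second spot (leaf cold 9 h 0.70, clone A; leaf salt 9 h 0.88 and root salt 9 h 0.68, clone B), and a minimum of 1 array (root salt 9 h 0.70, clone B). Fitting only the groups compared ended root salt at 3 h (0.59, clone A) and 9 h (0.71 and 0.70) and added root cold 27 h (0.49, clone B). Array weights added root cold 27 h (0.48, clone B), root heat minus salt (-0.33 and -0.29) and leaf minus root cold (0.47, clone B), and turned leaf heat 9 h (-0.0113, clone A), root cold minus heat (0.0561, clone A) and the root salt change from 3 to 9 h (-0.001 and -0.0024).

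Testing stress arrays against 0, without the no-stress arrays, gave 17 calls. It added leaf cold 9 h (0.67, clone B) and, in roots at 27 h, cold (0.38 and 0.47), heat (0.40 and 0.50) and salt (0.45 and 0.41). It ended root salt 9 h of clone A (0.33, adjusted p = 0.0898). It turned leaf heat 9 h (-0.10, clone A) and, in roots, cold 3 h (-0.0713 and -0.06), cold 9 h (-0.053 and -0.13) and heat 9 h (-0.13 and -0.0112).

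The labels do not say what the replicate numbers mark. Deviations of same-numbered arrays correlated over 0.1 in 45 of 54 pairs (range -0.06 to 0.52), and in all pairs of 11 of 18 comparisons, which points to something shared by a number in most of them, but not every pair passed, so the block stayed an alternative. With the replicate block 14 of 36 pairs were called, and leaf cold 9 h (0.72, clone B), root cold 27 h (0.49, clone B), root heat 27 h (0.52, clone B), root heat minus salt (-0.27, clone A) and leaf minus root cold (0.48, clone B) passed in addition, and no other call changed.

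Leaving out 1 array at a time gave ranges of 0.75 to 1.07 (clone A) for leaf cold 27 h, 0.55 to 0.88 (A) and 0.59 to 0.89 (B) for leaf cold 9 h, 0.73 to 1.06 (A) and 0.77 to 1.07 (B) for leaf salt 9 h, and 0.72 to 1.14 (A) and 0.74 to 1.27 (B) for leaf salt 27 h. Root salt ran from 0.47 to 0.70 (A) and 0.53 to 0.70 (B) at 3 h and from 0.52 to 0.84 (A) and 0.51 to 0.86 (B) at 9 h. Root cold minus salt ran from -0.37 to -0.24 (A) and -0.41 to -0.28 (B), root heat minus salt from -0.36 to -0.21 (A) and -0.28 to -0.14 (B), root heat 27 h from 0.29 to 0.70 (B) and leaf minus root cold from 0.44 to 0.55 (B). Signs turned for leaf heat at 3 h (-0.0882 to 0.0625 for A, -0.032 to 0.20 for B), 9 h (-0.12 to 0.23, -0.22 to 0.15) and 27 h (-0.0623 to 0.60, -0.11 to 0.69), for leaf cold minus salt (-0.0804 to 0.0596, -0.08 to 0.097), leaf minus root salt (-0.0167 to 0.13, A), root cold minus heat (-0.0967 to 0.0513, A), root cold 9 h (-0.10 to 0.25, B), root heat 9 h (-0.0197 to 0.39, B), and the root salt changes from 3 to 9 h (-0.076 to 0.25, -0.0732 to 0.27) and 3 to 27 h (-0.24 to 0.0062, A). None of these sign changes concerned a called value.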
